A study of Danio rerio with 3 samples.

Results

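The wells described here were the 50 with the highest summed standing of 5 genes, slc7a11, tinagl1, tp53inp1, ptgis and f3b, among 593 wells of sorted zebrafish macrophages. Wells with at least 1000 UMIs (unique molecular identifiers, each standing for 1 counted transcript) were kept, scaled to 10000 UMIs and log transformed, and each gene was standardized over all kept wells. The score of a well was the mean of the 5 standardized values, and the 543 other kept wells served as the comparison. The members were thus chosen by the measured levels of the 5 genes, which are given below as a description without a test. The wells had been proposed as stress-activated macrophages. The stress pathways examined below gave a mixed picture. Of 19 p53 targets 3 passed the test as higher and 1 as lower, while 1.78% of all genes tested passed as higher. No gene of endoplasmic reticulum stress passed, though 17 of 19 were above 0, as were 2603 of all 6113 genes. The 2 heat shock genes that passed were lower. Few genes passed in any of these lists, so the wells are called slc7a11-tinagl1-high wells.

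Macrophages under oxidative or metabolic stress take up cystine through the exchanger whose light chain is encoded by slc7a11, and use it to make glutathione. The other 4 genes have separate roles: tinagl1 encodes a secreted matricellular protein, tp53inp1 a p53-induced stress protein, ptgis the prostacyclin synthase and f3b a tissue factor, the receptor that starts blood coagulation. In mammals slc7a11 is a target of the transcription factors ATF4 and NRF2, and tp53inp1 of p53. Tissue factor is produced by activated mammalian monocytes and macrophages.

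The cells were mpeg-positive macrophages from dissociated whole embryos at 5 days post fertilization, sorted 1 per well into 384-well plates and counted with CEL-Seq2. The 2 genotypes were ptpn6 mutants and siblings, whose own genotype (wild type or heterozygous) the labels do not give. The gene ptpn6 encodes the phosphatase Shp1, which dampens immune receptor signalling. Sort day 1 had 1 plate shared by siblings (rows A to H) and mutants (rows I to P), and sort day 2 had a plate for each genotype, so plate and genotype cannot be told apart on day 2. The 4 combinations of genotype and day are called pools, and tests were made over sums per pool because wells of a pool are not replicates. How many embryos made up a pool is not stated in the labels, so p-values measure the spread of these pools only, and that spread may be technical.

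Members held between 1609 and 33273 UMIs, with a median of 11663 UMIs on 2290 genes. Other kept wells held between 1017 and 168454 UMIs, with a median of 8891 UMIs on 2028 genes. The pools contributed 1 member of 131 kept wells in siblings of day 1, 14 of 138 in mutants of day 1, 18 of 199 in siblings of day 2 and 17 of 125 in mutants of day 2. Of the 14 members from mutants of day 1, 7 lay in a single plate row of 20 kept wells, and the other rows of that pool held 7 members among 118 kept wells. The median score in that row was 0.41, against -0.10 in the other rows, and its median depth was 7779 against 8185 UMIs. The part of plate position in the score was not tested. The wells carry numbers only, and reading them row by row is an assumption. Under this reading, the last wells of the last rows, in a single corner of the plate, held far fewer UMIs than the plate on 2 plates. Their median was 0.0591 and 0.0890 of the plate median there, and 0.799 on the mutant plate. The median well of the mutant plate held only 207 UMIs, against 4353 and 1686, so its ratio cannot tell the readings apart. If the numbers ran by column, the genotypes of day 1 and the row above would be mixed. All plates used the same 384 well barcodes, and 2 well positions were members on more than 1 plate.

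The members did not stand apart as a group on the score. The last member had a score of 0.8311 and the first well outside 0.8303, and 12 members and 12 other wells lay within 0.1 of that limit. Scores of members ran up to 3.22 with a median of 1.05, and other wells had a median of -0.16. Over the kept wells the score had a Spearman correlation of 0.32 with depth.

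**Figure D1:**
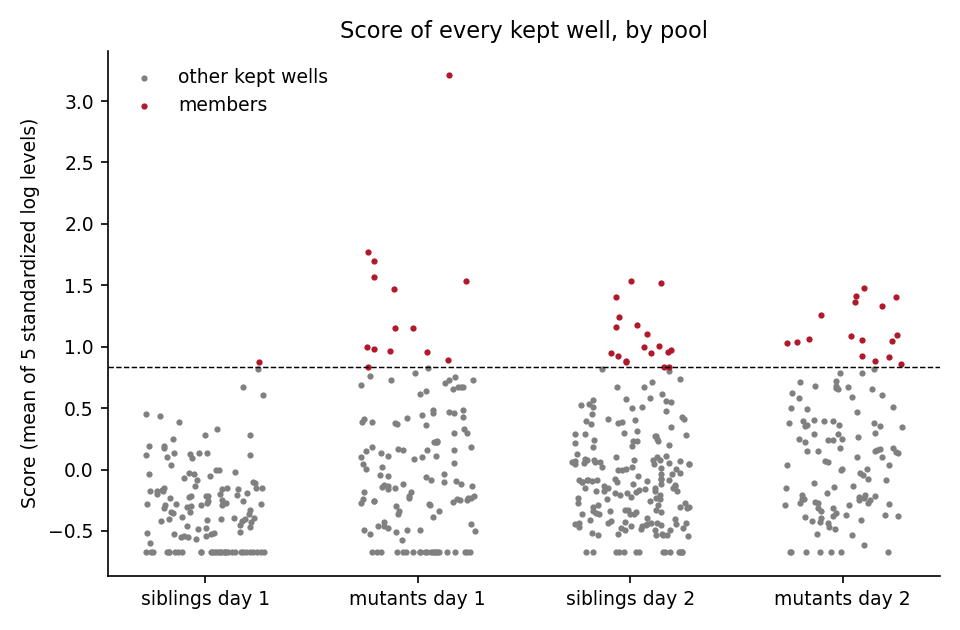
Score of every kept well (y axis, mean of 5 standardized log levels) in the 4 pools (x axis), with members in red, other kept wells in grey and the score of the last member, 0.8311, as a dashed line. Members and other wells form a continuous range, and siblings of day 1 have 1 well above the line.

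All 50 members held a UMI of f3b, while 38 held slc7a11, 38 tinagl1, 37 tp53inp1 and 30 ptgis. UMIs of all 5 genes were found in 11 members, of 4 in 22, of 3 in 16 and of 2 in 1. Among the other wells, 6 held all 5 genes and 42 held 4. At these depths a count of 0 does not show that a well lacked the gene.

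The detected genes varied by pool. The exchanger gene slc7a11 had UMIs in 8 of 14 members from mutants of day 1, 18 of 18 from siblings of day 2 and 11 of 17 from mutants of day 2. Its summed level in members was 398, 571 and 379 counts per 1000000 UMIs (CPM) in that order, against 110, 140 and 106 in other wells of the same pools. The matricellular gene tinagl1 had UMIs in 9 of 14, 11 of 18 and 17 of 17 members, with 711, 369 and 1232 CPM against 233, 81.3 and 242. On day 2, UMIs of slc7a11 were thus found in every sibling member and UMIs of tinagl1 in every mutant member.

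The tissue factor gene f3b was summed at 2106 CPM in members from mutants of day 1, 1377 in siblings of day 2 and 752 in mutants of day 2, against 408, 542 and 323 in other wells. The p53-induced gene tp53inp1 stood at 410, 285 and 303 CPM in members, against 76.3, 43.4 and 55.2. The prostacyclin synthase gene ptgis stood at 422, 108 and 194 against 35.7, 27.3 and 46.2. Of the 131 UMIs of ptgis in members, 64.2 lay in 3 wells, and of the 798 of f3b, 222 lay in 3 wells. The lone member from siblings of day 1 had 13 UMIs each of slc7a11 and f3b, 8 of tinagl1 and none of tp53inp1 or ptgis. Single wells reached 79.5 UMIs of tinagl1 and 106 of f3b per 10000 UMIs.

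**Figure D2:**
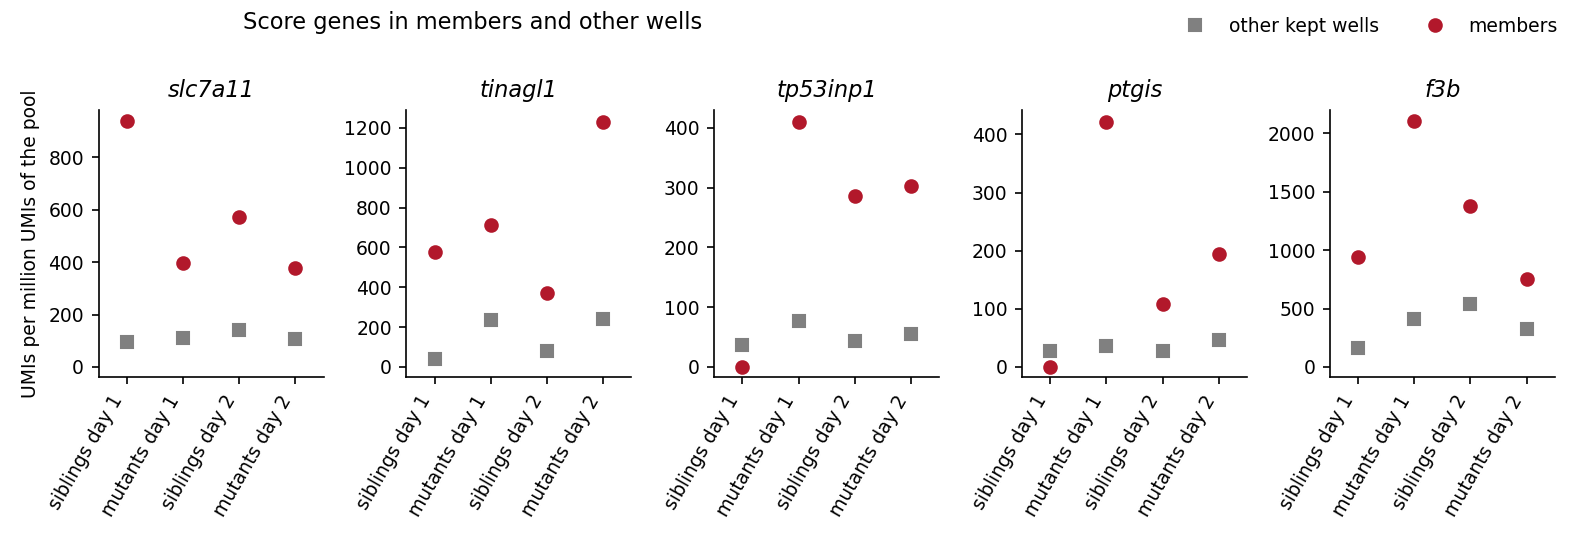
Summed level of each score gene in CPM (y axis, linear, own scale per gene) in members (red circles) and other kept wells (grey squares) of the 4 pools (x axis). The levels of members chose them, and the spread between pools is wide, as for tinagl1 at 369 in siblings and 1232 in mutants of day 2.

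To ask whether the 5 genes moved together beyond the rule, each gene was measured in the 50 wells with the highest score over the other 4 genes. These sets shared 31 to 38 wells with the members. None of the 5 genes passed the test in its own set, with edgeR's quasi-likelihood test over pools and Benjamini-Hochberg adjustment over all genes tested. The tissue factor gene f3b was measured 0.53 ± 0.18 (SE, log2) above other wells, in 3 of 3 pools (adjusted p = 0.11), where 1.22% of 5900 genes were called higher. The exchanger gene slc7a11 was measured at 0.69 ± 0.25, in 3 of 3 pools (adjusted p = 0.18, 0.645% of 6044 genes called higher). Their unadjusted p-values were 0.0068 and 0.015. 

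The remaining score genes had larger adjusted p-values, though the estimate for tinagl1 was the largest of the 5. The estimate for tinagl1 was 0.89 ± 0.39 on the log2 scale, higher in 3 of 4 pools (adjusted p = 0.34, 0.166% of genes called higher). That gene passed when wells had to hold 2000 UMIs (adjusted p = 0.023) and when genes were standardized within each plate (0.022). The 5 genes had come from earlier results on these same wells, so a pass here is not independent support that they move together. The estimate for ptgis was 0.53 ± 0.36, higher in 2 of 3 pools (adjusted p = 0.54, 1.76% called higher). For tp53inp1 it was -0.27 ± 0.31, lower in 3 of 3 pools (adjusted p = 0.77, 1.68% called higher), and 0.27 with genes standardized within each plate (0.80). Over all kept wells the pairwise Spearman correlations of the 5 genes ran from 0.036 for ptgis with f3b to 0.24 for tinagl1 with f3b, in sparse counts from the same wells.

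Macrophage markers were present in members and in other wells alike. Every member held UMIs of at least 3 of 25 matched macrophage marker genes, with a median of 13, as did 532 of the 543 other wells, with a median of 11, and 23 of the 25 had a UMI in the members together. Macrophage markers made up 0.966% of the UMIs of members and 0.744% of those of other wells, with single wells from 0.173% to 1.95% in members. Of the 20 markers tested, 2 passed as higher, the galectin gene lgals9l1 and the lysosomal tetraspanin gene cd63, and 0 as lower. Over all 6113 genes tested, 1.78% passed as higher and 2.18% as lower. The reporter gene's relative mpeg1 (ENSDARG00000055290) was at 146 CPM in members and 173 in other wells, with a difference of -0.28 ± 0.27 (adjusted p = 0.65). A second copy, mpeg1 (ENSDARG00000043093), was at 76.4 and 49.02 CPM, with a difference of 0.43 ± 0.37 (adjusted p = 0.62).

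Marker genes of metaphocytes, lymphoid cells and muscle took a smaller share in members than in other wells over all pools. For metaphocytes, mpeg-positive cells of ectodermal origin, icn summed to 22 UMIs in members and 1941.7 in other wells, and grna.2 to 27 and 3219.7. Both passed as lower, with log2 differences of -3.15 ± 0.39 and -3.51 ± 0.28 (adjusted p = 1e-05 and 1.2e-08), and cldn1, itln1 (ENSDARG00000007534) and itln1 (ENSDARG00000095082) were at 0 in members. All 7 metaphocyte markers made up 0.0618% of UMIs in members, with single wells from 0 to 0.192%, and 0.161% in other wells, with single wells from 0 to 5.80%. The lymphoid marker ccr9 had 61 and 2676.5 UMIs and a log2 difference of -2.20 ± 0.24 (adjusted p = 1e-06), and 8 lymphoid markers made up 0.0137% and 0.0564% of UMIs, with rag1, cd4-1 and zap70 at 0 in members. Muscle markers made up 0.0205% and 0.0950%, with the highest well at 0.141% and 4.60%, and in mutants of day 2 0.0108% and 0.00796%. Neutrophil markers made up 0.276% and 0.220%, with single wells up to 1.59% and 11.02%, and lyz had 25 and 783 UMIs, nearly all in mutants of day 2. In that pool the neutrophil share was 0.228% in members and 0.277% in other wells. The collagenase gene mmp13a, at 875 and 342 CPM over all pools (adjusted p = 0.13), had the largest difference in CPM of the 6 neutrophil markers. Osteoclast markers made up 0.111% and 0.0534%, mostly through ocstamp at 886 and 312 CPM, and in mutants of day 2 0.0952% and 0.0976%. Microglia markers made up 0.296% and 0.392%. A narrower comparison is given below.

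Between members and other wells, 109 of 6113 genes outside the score passed as higher, 1.78% of those tested, and 133 as lower, 2.18% (edgeR's quasi-likelihood test on sums per pool with the pool as a block, adjusted p under 0.05). The fit used the 3 pools with at least 3 members, so siblings of day 1 stayed out. Genes that rose included the cell fusion gene ocstamp, the hypoxia-responsive gene ndrg1 (ENSDARG00000032849), the glucose transporter gene slc2a3b and the itaconate synthase gene acod1. The median difference of the 109 higher genes was 0.88 on the log2 scale, and 105 of them were higher in all 3 pools and held at least 20 UMIs. With DESeq2's size factors in the same test 165 genes were higher and 134 lower, so the share of higher calls went from 45.04% to 55.2%, and it was 83.04% with DESeq2. The 5 score genes had come from earlier results on these wells, so the calls are not independent support for a distinct state.

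Many calls were lost in narrower comparisons. An added comparison took the 40 members and 268 other wells with under 0.1% of their UMIs from 6 genes of other classes. These were genes of metaphocytes, lymphoid cells and microglia (icn, grna.2, eomes, ccr9, apoeb and apoc1). Of the 3792 genes tested there, none was called higher and 3 were called lower, while 431 had an unadjusted p under 0.05. That set also holds fewer wells. All 108 of the higher genes that could be tested there were estimated above 0, and their median was 0.63 in place of 0.87. The 40 members are among the 50 whose levels picked these genes, so the kept direction is no separate test. Without siblings of day 2 only 12 of the 109 passed, without mutants of day 1 46 passed, and without mutants of day 2 60 passed. The 12 were ocstamp, ndrg1, slc2a3b, vcanb, marcksl1a, pnp, acod1, nfkbiaa, tnfaip3 and 3 genes without a symbol. With other wells limited to the UMI range of the members, 47 of the 109 passed.

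The best supported of the larger differences was ocstamp, which encodes a transmembrane protein needed for fusion of osteoclasts and foreign-body giant cells in mice. It stood at 948 CPM in members and 372 in other wells from mutants of day 1, 1120 and 332 in siblings of day 2, and 638 and 319 in mutants of day 2. Members lay above other wells in all 3 pools, and the lowest level in members exceeded the highest in other wells. The difference was 1.36 ± 0.18 on the log2 scale (adjusted p = 2.4e-05) and 1.05 in the wells low in genes of other classes (adjusted p = 0.084 there). UMIs of ocstamp were found in 33 of 50 members and 291 of 543 other wells.

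Other osteoclast markers did not move with it. The collagenase gene ctsk was at 57.6, 143 and 254 CPM in members of the same pools, against 115, 17.6 and 565 in other wells, and its log2 difference was 0.04 ± 0.45 (adjusted p = 0.98). For acp5 the difference was 0.09 ± 0.35 (adjusted p = 0.93), and calcr was at 0 in members.

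Another 3 genes that passed also without siblings of day 2 were ndrg1, slc2a3b and pnp. The hypoxia-responsive gene ndrg1 was at 832, 1010 and 958 CPM in members and 349, 443 and 496 in other wells, a difference of 1.105 ± 0.16 (adjusted p = 0.0001). The glucose transporter gene slc2a3b was at 1261, 793 and 1104 against 462, 523 and 478, a difference of 1.06 ± 0.17 (adjusted p = 0.00024). The purine nucleoside phosphorylase gene pnp was at 798, 759 and 692 against 267, 385 and 313, a difference of 1.21 ± 0.18 (adjusted p = 0.00011). For each of these genes the 3 levels in members were above the 3 in other wells. The last 2 genes were named after their values were seen.

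Of the 15 genes with the largest positive folds, 8 besides ocstamp are described first. The highest fold was that of ch25h, which encodes cholesterol 25-hydroxylase, with 2.14 ± 0.49 on the log2 scale (adjusted p = 0.012). It rested on 49 UMIs in 10 of the 50 members, 30 of them in 3 wells of a single pool. The galectin gene lgals9l1 differed by 1.64 ± 0.32, the urokinase gene plaua by 1.63 ± 0.31 and the MAP kinase phosphatase gene dusp4 by 1.63 ± 0.37. The adhesion-linked metalloprotease gene adam8a differed by 1.48 ± 0.34, the chondroitin sulfotransferase gene chst15 by 1.40 ± 0.30, the sorting nexin gene snx10 by 1.35 ± 0.29 and the versican gene vcanb by 1.30 ± 0.24.

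Their levels by pool were uneven. Urokinase plaua was at 271, 148 and 130 CPM in members and 41.4, 79.8 and 50.7 in other wells, so that every member pool was above every comparison pool. The phosphodiesterase-family gene gdpd3b, with a difference of 1.81 ± 0.30 (adjusted p = 0.00051), was at 283, 597 and 75.6 against 63.4, 106 and 65.3, so mutants of day 2 differed little. Of the 185 UMIs of gdpd3b in members, 98.5 lay in 3 wells. The remaining 5 of the 15 genes, zgc:77158, casp21, pawr, ano9a and znf521, had folds between 1.31 and 1.59 on 43 to 52 UMIs in members. Without siblings of day 2, ocstamp and vcanb passed among the 15, and 8 passed without mutants of day 1, 10 without mutants of day 2, and 11 without the plate row that held 7 members. In the wells low in genes of other classes, none of the 14 that could be tested passed, and all 14 were estimated above 0. Those members are among the wells that picked the genes, so the direction there is no separate test.

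**Figure D3:**
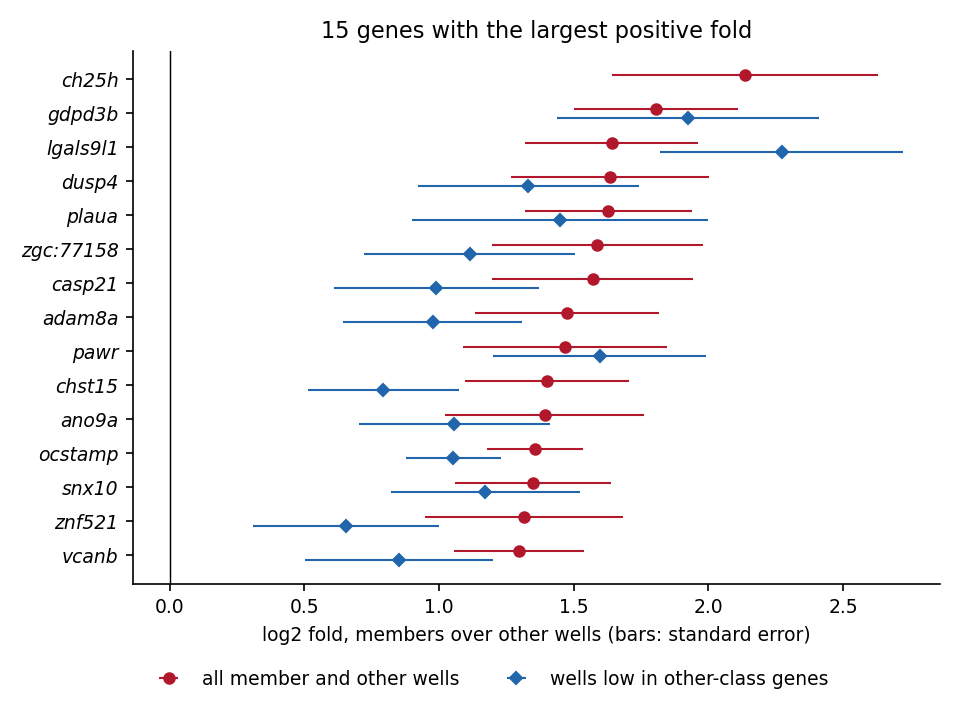
Difference between members and other wells (x axis, log2 fold with its standard error as a bar) for the 15 genes with the largest positive fold that passed. Red circles use all wells of the 3 pools fitted. Blue diamonds use the 40 members and 268 other wells low in genes of other classes, where ch25h could not be tested. Every estimate shown is above 0, but the 40 members are among the wells that picked the genes, so this is no separate test.

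The pathways that the score genes stand for were then read from 20 gene lists. Over all genes tested the median difference was -0.11 on the log2 scale, beside the 1.78% called higher and 2.18% called lower. Of 24 tested genes of the ATF4 and amino acid response, atf4b itself passed as higher, by 0.58 ± 0.15 (adjusted p = 0.025). None passed as lower, and the list's median was 0.09. When any single fitted pool was left out of the same test, atf4b stayed at 0.58 but did not pass. The adjusted p of atf4b ran from 0.068 without mutants of day 1 to 0.18 without siblings of day 2. It was 0.059 without the plate row with most members, and 0.062 with other wells limited to the UMI range of the members. Of 23 genes of NRF2, glutathione and thioredoxin, the ferritin gene fthl27 passed as higher, by 0.52 ± 0.10 (adjusted p = 0.0025), none as lower, and the median was -0.19. Of 19 genes of endoplasmic reticulum stress none passed either way, with a median of 0.39. Its members with most UMIs, the transcription factor gene xbp1 and the chaperone gene hsp90b1, were at 0.50 ± 0.17 (adjusted p = 0.099) and 0.34 ± 0.16 (0.26).

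Of 19 tested p53 targets, 3 passed as higher and 1 as lower, with a median of 0.48. The p53 ligase gene mdm2 was at 185, 83.6 and 113 CPM in members and 58.4, 46.9 and 47.98 in other wells, a difference of 1.24 ± 0.30 (adjusted p = 0.018). The stress response gene gadd45b (ENSDARG00000027744) rose by 0.89 ± 0.23 and the cyclin G1 gene ccng1 by 0.55 ± 0.15 (adjusted p = 0.025 and 0.03). The kinase gene plk2 (ENSDARG00000019130) fell by 2.04 ± 0.55 on 7 UMIs in members (adjusted p = 0.03). Without any single one of the 3 fitted pools, none of the 3 higher genes passed, with adjusted p from 0.051 for gadd45b without siblings of day 2 to 0.33 for the same gene without mutants of day 1.

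Of 14 tested heat shock genes, none passed as higher and 2 passed as lower. The list's median was -0.26, 6 of its genes were above 0, and 3 were higher in all 3 pools. The inducible chaperone gene hsp70l was at 40.3, 281 and 146 CPM in members and 395, 524 and 885 in other wells, and fell by 2.04 ± 0.28 (adjusted p = 5.6e-05). Its cochaperone gene bag3 fell by 3.13 ± 0.81 on 2 UMIs in members (adjusted p = 0.026). Without any single one of the 3 fitted pools bag3 did not pass (adjusted p from 0.15 to 0.19), while hsp70l passed each time. With other wells limited to the UMI range of the members, hsp70l was at -1.47 (adjusted p = 0.071) and bag3 could not be tested. Reads of hsp70l may be shared with near-identical copies of the gene, and in the wells low in genes of other classes hsp70l was at -1.03 with an adjusted p of 0.6.

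Among 15 tested inflammatory mediators, 4 passed as higher and none as lower, with a median of 0.20. The itaconate synthase gene acod1 was at 3119, 5664 and 3091 CPM in members and 1599, 4312 and 1946 in other wells, a difference of 0.65 ± 0.11 (adjusted p = 0.00079). The NF-kappaB inhibitor gene nfkbiaa rose by 0.63 ± 0.14 (adjusted p = 0.0086), the ubiquitin-editing gene tnfaip3 by 0.55 ± 0.13 (0.015) and the cytokine gene tnfa by 0.92 ± 0.25 (0.03). In siblings of day 2, nfkbiaa was at 3916 in members and 3961 in other wells, so its rise was confined to the 2 mutant pools among those fitted. Of the 4, only acod1 passed the same test without each of the 3 fitted pools in turn. Without mutants of day 1 the adjusted p was 0.092 for nfkbiaa, 0.065 for tnfaip3 and 0.41 for tnfa. Without mutants of day 2 the values were 0.065, 0.13 and 0.086 in that order. Without siblings of day 2, tnfa did not pass (0.094) and the other genes did.

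Of 26 immediate early and dissociation response genes, 5 passed as higher and 1 as lower, with a median of 0.21. The gene gadd45b (ENSDARG00000027744) is counted both among these 5 and among the 3 higher p53 targets. The cytokine signalling inhibitor gene socs3 (ENSDARG00000026611) was at 236, 285 and 264 CPM in members and 120, 124 and 120 in other wells, a difference of 1.09 ± 0.22 (adjusted p = 0.0048). The survival gene mcl1b rose by 0.85 ± 0.19 and the early response gene ier2b by 0.88 ± 0.23, while the transcription factor gene cebpd fell by 2.40 ± 0.68 on 4 UMIs in members. The list holds genes known to respond to tissue dissociation, and its part in the score was not tested.

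Of 20 genes of lysosome and phagocytosis, 3 passed as higher and none as lower, with a median of 0.29. The protease genes ctsl.1 and ctsd rose by 0.88 ± 0.20 and 0.66 ± 0.17 (adjusted p = 0.0086 and 0.026), and cd63 by 0.46 ± 0.11 (0.018). In mutants of day 2, ctsl.1 was nearly absent, at 21.6 CPM in members and 22.6 in other wells. Of its 517 UMIs in members of the 3 pools fitted, 273 lay in 3 wells of siblings of day 2. Of 12 genes of hypoxia and glycolysis, ndrg1 and the glycolytic regulator gene pfkfb3 passed as higher, the latter by 0.68 ± 0.18, with a median of 0.14. Of 13 genes of matrix and proteases, adam8a and the inhibitor gene timp2 (ENSDARG00000075261) passed as higher and the phosphoprotein gene spp1 as lower, with a median of 0.04. All UMIs of spp1 came from mutants of day 2, with 43.2 CPM in members and 282 in other wells there.

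Related genes of ptgis and f3b were read from 2 lists. Of 8 tested prostanoid and leukotriene genes none passed, with a median of -0.12, and the prostacyclin receptor gene ptgir was at 0.79 ± 0.36 (adjusted p = 0.25), higher in 3 of 3 pools. Of 7 tested genes of coagulation and fibrinolysis, plaua passed as higher and none as lower, 6 were above 0, and the median was 0.34. No gene passed among 8 of growth factors and repair (median 0.18), 11 of the cell cycle (-0.43), 4 of the interferon response (-0.45) or 21 of nuclear oxidative phosphorylation (-0.45). Of the 21 respiratory genes 13 were lower in all 3 pools, as were 44 of the 66 ribosomal protein genes and 1474 of all 6113 genes, and 11 of the 19 genes of endoplasmic reticulum stress were higher in all 3, as were 954 of all genes. No gene passed among the ribosomal protein genes (median -0.17) or 13 of the mitochondrial genome, whose median of 0.00 turned to -0.09 when wells were scaled to the same total. Mitochondrial transcripts made up 5.17% of the UMIs of members and 5.02% of those of other wells.

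Lipid and antigen presentation genes held the remaining lower calls of the lists. Of 10 lipid handling genes, apoeb, apoc1 and fabp7 (ENSDARG00000007697) passed as lower, with a median of -0.02 for the list. This fabp7 gene is also among the neural markers used here and had 3 UMIs in members. Of its 234 UMIs in other wells, 183 lay in siblings of day 2, and mutants of day 2 had none. With other wells limited to the UMI range of the members, fabp7 was at -1.76 (adjusted p = 0.42). The apolipoprotein gene apoeb was at 74.9, 138 and 651 CPM in members and 267, 672 and 690 in other wells, and fell by 1.26 ± 0.28 (adjusted p = 0.0082). Both apolipoprotein genes mark microglia and help define the wells low in genes of other classes, so their values there, 0.18 and -0.09, follow from how that set was built. In mutants of day 2 apoc1 was higher in members, at 2412 CPM against 1596, and DESeq2 gave it an adjusted p of 0.50. Of the 640 UMIs of apoc1 in all members, 382 lay in 3 wells. Of the 206 of apoeb, 108 lay in 3 wells, so the level of a pool may rest on few wells. Of 8 antigen presentation genes, the costimulatory genes cd40 and cd83 fell by 1.00 ± 0.25 and 0.96 ± 0.21 (adjusted p = 0.019 and 0.0066), and none rose.

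**Figure D4:**
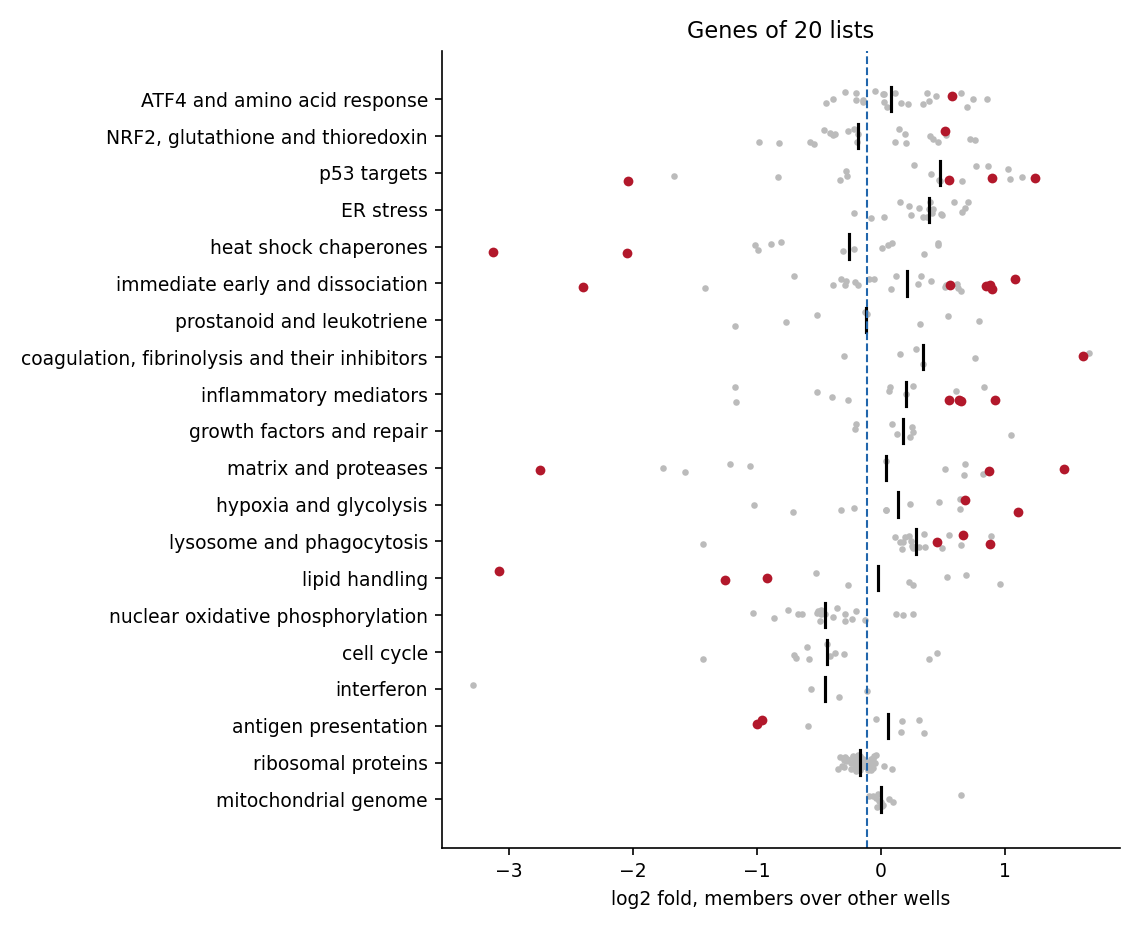
Difference between members and other wells (x axis, log2 fold) for each tested gene of 20 lists (y axis), with genes that passed in red, other genes in grey, list medians as black bars and the median of all genes tested, -0.11, as a dashed line. Endoplasmic reticulum stress has a median of 0.39 with no gene that passed, and both heat shock genes that passed lie below 0.

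Genes lower in members were for the most part scarce in them. Of the 133, 72 had under 10 UMIs in members of the 3 pools and 11 had 0. The chemokine gene cxcl12 had 0 UMIs in members and 125 in other wells, at least 5.44-fold lower when the floor was set at 3 counts over the members of the 3 pools. In other wells cxcl12 was at 15.4 CPM in mutants of day 1, 0.504 in siblings of day 2 and 95.3 in mutants of day 2, there in 19 wells. The neuronal membrane gene gpm6a (ENSDARG00000055455) had 0 and 143 UMIs, at least 6.19-fold lower. Its levels in other wells were 22.7, 56.3 and 2.72 CPM in that order, so these 2 bounds rest on uneven pools. The epithelial junction gene cldn7b had 0 and 99 UMIs, at least 4.30-fold lower. The other 5 of the most negative folds at 0 UMIs, bzw2, rasgrp3, hsf2, atp1b3b and ENSDARG00000091016, had bounds between 3.56-fold and 4.47-fold. The gene ENSDARG00000070439 had 8 UMIs in members and 2057 in other wells, nearly all in siblings of day 2, and cfl1l had 1 and 219. With other wells limited to the UMI range of the members, ENSDARG00000070439 was at -1.40 (adjusted p = 0.34) in place of -4.71, and cfl1l at -4.16 (0.021). DESeq2 gave ENSDARG00000070439 an adjusted p of 0.14. In the wells low in genes of other classes, 74 of the 79 lower genes that could be tested were below 0, with a median of -1.35 in place of -2.53 for all 133. Those wells are a part of the wells that picked the genes, so the direction is no separate test. Of the 133, 54 passed without mutants of day 1, 19 without siblings of day 2 and 89 without mutants of day 2.

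Outside the 5 genes, the level most like the score over the 593 kept wells was that of dennd4a, a gene of vesicle traffic regulation, with a Spearman correlation of 0.42 among 8148 genes compared. It was followed by the fibrinogen-like gene fgl2 (0.38), the adaptor gene sdcbp2 (0.37), cd63 (0.37) and ENSDARG00000087353 (0.36). Next came the survival gene birc2 (0.36) and mxi1, the glycolytic aldoc (ENSDARG00000019702), m17 and the stress-responsive maff, each between 0.35 and 0.36. The same genes had correlations with depth from 0.15 for cd63 to 0.36 for aldoc. Because members are the wells with the highest score, the levels of these genes in members follow in part from this choice and are not used as a test.

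The comparison of genotypes asked whether ptpn6 mutants had more such wells. On day 1, members made up 0.763% of kept sibling wells (95% exact binomial interval 0.0193 to 4.18) and 10.1% of mutant wells (5.66 to 16.4), from the same plate. On day 2 they made up 9.05% of sibling wells (5.45 to 13.9) and 13.6% of mutant wells (8.13 to 20.9), from separate plates. Mutants exceeded siblings by 9.38 percentage points on day 1 (95% interval 4.11 to 15.6) and by 4.55 on day 2 (-2.33 to 12.4), and these intervals cover counting error only. Siblings of the 2 days differed more from each other than the genotypes did on day 2, and 2 pools per genotype cannot give an exact permutation p below 0.333, so no test was made.

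The direction on day 2 was not the same in every setting. When genes were standardized within each plate, siblings of day 2 had 9.55% and mutants 6.4%, and when tinagl1 was left out of the score the mutant excess was -0.655 points. In the remaining settings mutants of day 2 were above siblings, by 4.46 to 9.37 points. The 95% counting interval lay above 0 in the 30 and 100 highest wells, and with slc7a11, tp53inp1 or f3b left out. On day 1 mutants stayed above siblings in all 12 other settings tried, with a difference between 5.17 and 17.96 percentage points. The lowest came from leaving out the plate row with 7 members, where mutants had 5.93%. Thinning every well to 1000 UMIs gave similar shares, 1.53%, 10.1%, 8.04% and 14.4%, yet only 22 of the 50 wells chosen were the same.

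Within members, siblings had 1 pool with at least 3 members, so mutants and siblings could not be tested and values of day 2 are given with counting intervals. The targeted gene ptpn6 had 0 UMIs in members of every pool, so it could not check the labels there. Members carried large differences between genotypes that other wells carried too. The gene si:dkey-6n3.3 was at 34.4 CPM in sibling members and 5292 in mutant members, a ratio of 154 (95% counting interval 74.3 to 383), and the ratio in other wells was 176 (137 to 229). Mutant members of day 1 had it at 1856. The phospholipid-binding gene anxa5b had a ratio of 33.5 (8.88 to 283) in members and 27.7 (18.01 to 44.8) in other wells, and the class II invariant chain gene cd74a 6.38 (4.49 to 9.31) and 7.13 (6.32 to 8.05).

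The score genes chose the members, so their ratios within members are set in part by the rule and are a description only. Mutant members held more tinagl1, 3.34 times the sibling level (2.56 to 4.39), against 2.98 (2.44 to 3.64) in other wells. They held less f3b, with a ratio of 0.545 (0.441 to 0.67) in members and 0.596 (0.528 to 0.673) in other wells, and slc7a11 had 0.663 (0.485 to 0.899) and 0.755 (0.603 to 0.94). On day 1 mutant members had f3b at 2106, above the members of either genotype on day 2, so the direction for f3b was not carried across days.

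Some genes had unlike estimates of the ratio inside and outside the members, in both directions. The actin-severing gene scinlb had a ratio of 21.2 (6.91 to 105.9) in members, on 58 and 3 UMIs, and 5.63 (4.63 to 6.88) in other wells. For sult5a1 the ratios were 50.5 (8.62 to 2038), on 46 and 1 UMIs, and 6.11 (4.21 to 9.07), and these intervals overlap. Both genes were named for the size of their ratio in members, a choice that favours a larger ratio inside than outside. The osteoclast collagenase gene ctsk was 1.78 times (1.097 to 2.93) as high in mutant as in sibling members, on 47 and 29 UMIs, and 31.98 times (22.7 to 46.3) in other wells. Sibling members had it at 143 and other sibling wells at 17.6 CPM. The ratio for ocstamp was 0.568 (0.451 to 0.713) in members and 0.962 (0.843 to 1.097) in other wells, and that for si:dkey-119g10.4 was 20.4 (14.6 to 29.2) and 53.6 (45.1 to 64.3). Whether the ratios differ between member and other wells was not tested across pools. The protease gene ctsl.1 had 383 UMIs in sibling members and 4 in mutant members of day 2, a sibling level 87.2 times the mutant one. Other wells carried this difference too, at 845 CPM in siblings and 22.6 in mutants of day 2. Its ratio of mutants to siblings was 0.0115 (0.00311 to 0.0296) in members and 0.0268 (0.0173 to 0.0397) in other wells, with overlapping intervals. In mutant members of day 1 ctsl.1 was at 748 CPM. Of its 383 UMIs in sibling members of day 2, 273 lay in 3 wells. The eye opsin gene opn1sw had 109 UMIs spread over all 18 sibling members of day 2 and none in members of other pools, and stood at 5195 CPM in other wells of that plate, and the part of RNA from outside the sorted cells was not tested.

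**Figure D5:**
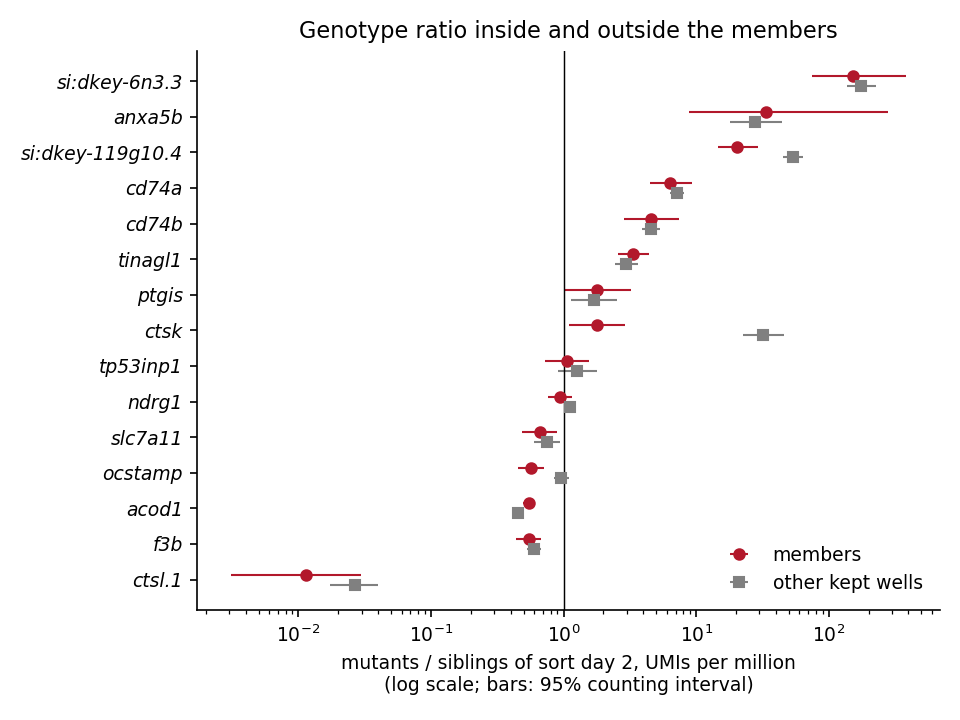
Ratio of the summed level in mutants to that in siblings of day 2 (x axis, log scale, CPM) for 15 genes in members (red circles) and other kept wells (grey squares), with 95% counting intervals as bars. Ratios inside and outside members are close for si:dkey-6n3.3 and cd74a, and far apart for ctsk, at 1.78 and 31.98.

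A test of genotype was possible in the 100 wells with the highest score, of which 4 came from siblings and 29 from mutants of day 1, and 34 from siblings and 33 from mutants of day 2. None of 3639 genes passed in either direction (0% called, edgeR's quasi-likelihood test), 132 of 3644 genes with the score genes included had an unadjusted p under 0.05, and DESeq2 called 2 as higher and none as lower. Without single pools up to 6 genes were higher, without mutants of day 1, and up to 4 lower, without siblings of day 1. The smallest p-values belonged to the chemokine gene ccl34b.8, si:dkey-6n3.3, si:dkey-119g10.4, the cone transducin gene gnat2 and sult5a1, with adjusted p from 0.096 to 0.22. The chemokine gene had 50 UMIs in mutants of day 1 and 71 in those of day 2, and 0 in either sibling pool. Adding sort day as a block gave 10 genes higher in mutants (0.275%) and 2 lower (0.055%), the latter gnat2 and the cytokine gene il11b. The call for gnat2 rested on the sibling plate of day 2, which held 36 UMIs. Siblings of day 1 held 1, and both mutant pools held none. Plate and genotype cannot be separated for day 2, and the part of RNA from outside the sorted cells was not tested for gnat2.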

How the data were processed

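Single mpeg-positive cells on 3 plates of 384 wells were analysed. Values are expected counts as deposited, that is UMIs of a gene in a well after a correction for UMI collisions. Inverting the correction for 4096 possible UMIs gave whole numbers within 0.005 for 100% of values. BWA and the genome build Zv9 are named in the submitters' processing notes without a version, and the sources used here do not give the counting steps. Symbols matched 17027 of 21915 IDs, holding 75.9% of UMIs, and near-identical paralogues are uncertain. Well numbers carry no names and were read row by row, 192 sibling wells before the mutant wells on the shared plate. Spike-ins were left out. Wells under 1000 UMIs were dropped, no doublet caller was run, and an alternative dropped the deepest 2% of wells.

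Sums per pool were rounded and tested with edgeR 4.0.16 (R 4.3.3), scaled by TMM after filterByExpr, with Benjamini-Hochberg adjustment over genes outside the score; DESeq2 1.42.0 was an alternative, and the steps were tested on simulated data. Member and other wells of a pool share embryos, plate and day, which is why the pool was a block. The members and the lists were chosen with earlier results of these data known. Genes are named by rule: the 15 largest positive and 10 most negative folds that passed with the same direction in every pool and at least 20 UMIs, up to 5 that passed per list or otherwise the 2 with most UMIs, and the 10 most like the score. For genotype within members, genes of day 2 with at least 20 UMIs in at least 5 wells were ranked by ratio after the data were seen, and some known from the other comparisons were added. Summed levels are CPM of the pool. Intervals cover counting error only.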

Additional observations from a re-analysis of the deposited data

Results flagged for a closer look

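Wells under the minimum of 1000 UMIs, which entered no comparison, held UMIs of the 5 score genes above the limit of 3 that a count of 0 allows. On the shared plate 108 such wells outside the corner positions held 22, on the mutant plate 251 wells held 42 and on the sibling plate of day 2 177 wells held 36. These were 636, 955 and 798 CPM in that order. The 5 genes made up 0.0731% of the UMIs of other kept wells and 0.315% of those of members. The labels do not say whether the corner positions, all in a single corner of each plate, received a cell. These positions held 0 UMIs of the score genes in 7 wells of the shared plate, 4 in 8 wells of the mutant plate and 0 in 8 wells of the sibling plate. The 4 on the mutant plate were 3103 CPM, on 1289 UMIs in all. The part of free RNA in these counts was not tested.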

How the results depend on the processing

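Against 109 higher and 133 lower genes, the 30 highest wells gave 53 and 94, the 100 highest 94 and 225, standardizing within each plate 66 and 112, and a minimum of 2000 UMIs 79 and 86. Other wells within the members' UMI range gave 47 and 38, dropping the deepest 2% of wells 49 and 49, DESeq2's size factors 165 and 134, DESeq2 93 and 19, no filter on low counts 36 and 231, and wells scaled to the same total 72 and 110. Wells low in genes of other classes, an alternative chosen after seeing the data, gave 0 and 3. Without the pool as a replicate block 0 and 0 genes passed, so the calls rest on the pairing of member and other wells within a pool. Leaving out a pool gave 12 to 76 higher and 20 to 99 lower, lowest without siblings of day 2. Of single named genes, spp1 turned to 0.40 in the 100 highest wells, and the cause was not tested. The value of apoeb turned to 0.18 in wells low in genes of other classes, a set defined in part by apoeb itself. With tinagl1 out of the score, its own difference was 0.87 with a minimum of 2000 UMIs and 1.04 within plates, and passed in both. The mutant excess on day 1 was 17.96 points in the 100 highest wells. On day 2 it was 9.31 points in the 100 highest wells and -3.15 points within plates.

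In the 100 highest wells, genotype gave 0 and 0 genes; sort day as a replicate block gave 10 and 2, DESeq2 2 and 0, no filter 6 and 9, and leaving out a pool 0 to 6 higher and 0 to 4 lower. Few members per pool limit every comparison, and 72 of the 133 lower genes rest on under 10 UMIs in members.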
